A study of Homo sapiens with 8 samples.

Results

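A549 cells, a line from a human lung adenocarcinoma with features of type II alveolar epithelium, were measured here for 10 genes of FOXO transcription factors and growth arrest. The 10 are the factors FOXO1, FOXO3 and FOXO4, the growth arrest genes TP53INP1, CCNG2, CDKN1B and RBL2, the repressor BCL6, and IRS2 and INSR of insulin signaling. They were named from the FOXO pathway, with earlier results of these arrays known, and the rule used no value of them other than mean signal. Each was read from the probe set that carries its symbol alone, and they are 10 of 18377 genes with such a probe set.

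Confluent cells at an air-liquid interface were exposed for 4 hr, and RNA was collected 9 hr later. The 4 groups of 2 arrays were cells exposed in the morning to primary pollutants (the fresh urban mix of the labels), their morning control in humidified air, cells exposed in the evening to photochemically altered (PCA) pollutants (the aged urban mix), and their evening control in humidified air. All 4 groups share the cell line, the interface culture and both times. A549 is 1 tumor line, and the arrays of a group share 1 exposure run, so the errors below are those within a run, and mixture, time of day and run cannot be told apart. Values are log2 signals of Human Gene 1.0 ST arrays. RNA came from whole cultures, so fewer cells that hold a transcript and less of it per cell cannot be told apart.

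FOXO proteins bind forkhead sites in DNA and switch on genes that slow the cell cycle, promote autophagy and cell death, and raise sensitivity to insulin. When insulin or growth factors activate PI3K and AKT, AKT phosphorylates the FOXO proteins, 14-3-3 proteins hold them outside the nucleus, and their targets are transcribed less. FOXO activity is thus set mostly at the protein, which these arrays did not measure. INSR and IRS2 are FOXO targets and also parts of the pathway that restrains FOXO.

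A gene is said to rise or fall only where limma's adjusted p was under 0.05 and the fold change reached 1.5 either way, the limits that the study's methods set. Standard errors and intervals are from that fit, with n = 2 arrays per group. After the PCA pollutants, 2 of the 10 genes fell and none rose, beside 3.53% of 17470 genes called in either direction and 2.66% called lower. The 2 were TP53INP1 and CCNG2, which the study's own list of changed genes also holds as lower after this mixture. A further 4, BCL6, CDKN1B, RBL2 and INSR, had an adjusted p under 0.05 but lay lower by less than the fold limit. With no fold limit, 6 of 10 were therefore lower, beside 14.1% of all genes. BCL6 kept an adjusted p under 0.05 without any 1 array, but the other 3 did not. It reached 0.102 for CDKN1B (lost without evening control replicate 2 or PCA pollutants replicate 1) and 0.0911 for RBL2 (lost without either evening control or PCA pollutants replicate 1). It reached 0.174 for INSR, which kept it only without a primary array or PCA pollutants replicate 1 and was at -0.25 without PCA pollutants replicate 2. Both PCA arrays lay below both evening controls for 7 of the 10 genes and above them for 2, where 36.6% and 31.7% of all genes did so. The median log2 fold change of the 10 genes was -0.42, and that of all genes was -0.0017. Because of that choice, these counts describe the 10 genes and are not independent evidence.

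After the primary pollutants, limma called 0 of the 10 genes and 0% of 17381 genes. The study's own analysis of variance with q-values did call genes after this mixture, none of them among the 10. Over all genes, 6 were called with a trended and robust prior, 14 by an unadjusted analysis of variance and 25 with the controls exchanged, none of them among the 10. An unadjusted p under 0.05 was seen for 2 of the 10, TP53INP1 and BCL6, beside 7.96% of all genes. Both primary arrays lay below both morning controls for 3 of the 10 (21.7% of all genes) and above them for 1 (17% of all genes). The median log2 fold change of the 10 was -0.0586, near the -0.0072 of all genes, and turned to 0.0349 with the arrays scaled to ribosomal protein genes (all genes then 0.0865) and to 0.0586 without primary pollutants replicate 2.

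**Figure D1:**
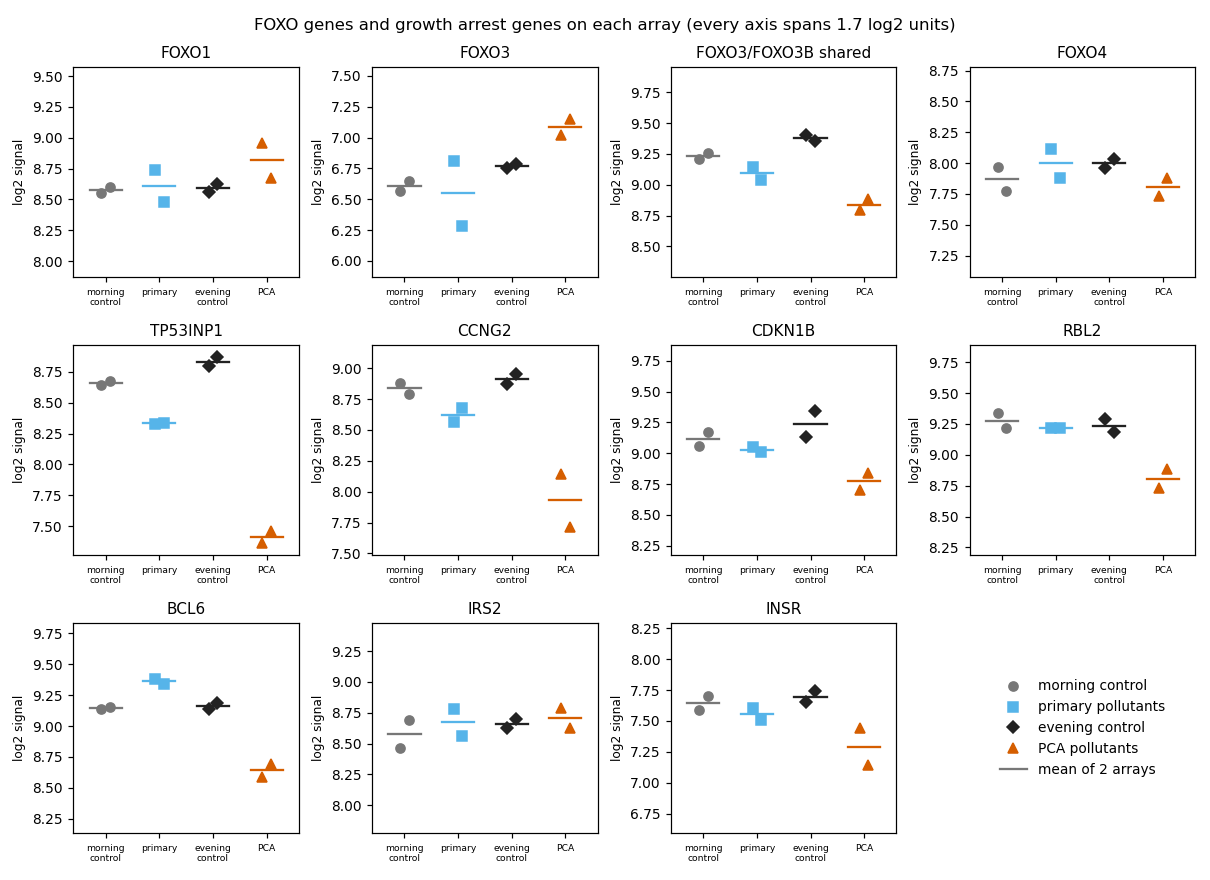
Log2 signal (vertical axis) of the 10 genes, and of the probe set that FOXO3 shares with FOXO3B, with 1 point per array in 4 groups and a line at the mean of the 2 arrays. TP53INP1 and CCNG2 are lowest on both PCA arrays, BCL6 is highest on both primary and lowest on both PCA arrays, and the 2 FOXO3 probe sets part in opposite directions after the PCA pollutants.

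Of the growth arrest genes, TP53INP1 had the largest response. Its protein promotes autophagy and p53-dependent cell death. The log2 signal of TP53INP1 was 8.65 and 8.68 in the morning controls, 8.33 and 8.34 after the primary pollutants, 8.80 and 8.87 in the evening controls, and 7.36 and 7.46 after the PCA pollutants. The groups did not overlap, and both exposed groups lay below their own controls. TP53INP1 fell by 1.42 on the log2 scale after the PCA pollutants (standard error 0.0724, interval -1.59 to -1.25, adjusted p = 0.000633), a level 2.68-fold lower. The primary response of TP53INP1 was -0.33 (standard error 0.0724, adjusted p = 0.392), which did not pass.

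CCNG2 encodes cyclin G2, an unusual cyclin that is associated with arrest and not with progression of the cell cycle, and its gene is a direct FOXO target. The log2 signal of CCNG2 was 8.88 and 8.80 in the morning controls, 8.57 and 8.68 after the primary pollutants, 8.87 and 8.96 in the evening controls, and 8.14 and 7.71 after the PCA pollutants. Both PCA arrays were below all 6 others, though they differed from each other more than the arrays of any other group. CCNG2 fell by 0.98 after the PCA pollutants (standard error 0.134, interval -1.29 to -0.67, adjusted p = 0.00442), or 1.98-fold. It no longer passed when limma's treat tested it against the 1.5-fold limit itself, whereas TP53INP1 did. The primary response of CCNG2 was -0.21 (standard error 0.134, adjusted p = 0.709). The sequence upstream of CCNG2 is shown because this gene fell and is a known FOXO target. It covers the 250 bases before the start site on the plus strand of GRCh38.p14 (RefSeq, chr4:77156957-77157206). Neither of the motifs searched was found in it, so it holds no capitals.
CCNG2: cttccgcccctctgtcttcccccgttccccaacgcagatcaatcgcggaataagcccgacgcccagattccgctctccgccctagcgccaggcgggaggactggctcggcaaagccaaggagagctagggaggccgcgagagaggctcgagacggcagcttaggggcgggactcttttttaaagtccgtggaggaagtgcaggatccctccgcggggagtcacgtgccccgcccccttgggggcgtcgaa

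CDKN1B and RBL2 act on the cell cycle more directly. CDKN1B encodes p27, an inhibitor of cyclin-dependent kinases, and RBL2 encodes p130, the pocket protein that represses cell cycle genes in resting cells as part of the DREAM complex. CDKN1B was at 9.06 and 9.17 in the morning controls, 9.05 and 9.01 after the primary pollutants, 9.13 and 9.34 in the evening controls, and 8.70 and 8.84 after the PCA pollutants. RBL2 was at 9.34 and 9.21, 9.22 and 9.22, 9.29 and 9.18, and 8.73 and 8.88 in the same order. For both genes the PCA arrays were the lowest of all 8. The PCA response was -0.47 for CDKN1B (standard error 0.0968, adjusted p = 0.0169) and -0.43 for RBL2 (standard error 0.0866, adjusted p = 0.0154), differences of 1.38-fold and 1.35-fold that did not reach the fold limit. Their primary responses were -0.09 and -0.06, each smaller than its standard error.

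BCL6, a transcriptional repressor that FOXO proteins induce, lay on opposite sides of its controls after the 2 mixtures. Its log2 signal was 9.14 and 9.15 in the morning controls, 9.38 and 9.34 after the primary pollutants, 9.14 and 9.18 in the evening controls, and 8.58 and 8.69 after the PCA pollutants. The primary arrays were the highest of all 8 and the PCA arrays the lowest. The primary response of BCL6 was 0.22 (standard error 0.0720, interval 0.05 to 0.38, adjusted p = 0.501), which did not pass. Its PCA response was -0.52 (standard error 0.0721, interval -0.69 to -0.35, adjusted p = 0.00465), a level 1.44-fold lower and short of the fold limit.

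The insulin signaling genes differed from each other. INSR, the insulin receptor, was at 7.59 and 7.71 in the morning controls, 7.61 and 7.51 after the primary pollutants, 7.65 and 7.74 in the evening controls, and 7.44 and 7.14 after the PCA pollutants. Both PCA arrays were the lowest, and the PCA response of INSR was -0.40 (standard error 0.111, adjusted p = 0.0401), under the fold limit. IRS2, the adaptor that carries the receptor's signal to PI3K, was at 8.46 and 8.69 in the morning controls, 8.78 and 8.56 after the primary pollutants, 8.62 and 8.70 in the evening controls, and 8.79 and 8.62 after the PCA pollutants. The 4 groups of IRS2 overlapped. Its PCA response was 0.04 (standard error 0.113, interval -0.22 to 0.30, adjusted p = 0.802), an interval that leaves out a change of 1.5-fold in either direction. The 250 bases upstream of IRS2 (RefSeq, GRCh38.p14, minus strand, chr13:109786584-109786833) are shown because IRS2 was the only one of the 9 genes with a promoter sequence that held the insulin response core, given in capitals as it reads on the opposite strand.
IRS2: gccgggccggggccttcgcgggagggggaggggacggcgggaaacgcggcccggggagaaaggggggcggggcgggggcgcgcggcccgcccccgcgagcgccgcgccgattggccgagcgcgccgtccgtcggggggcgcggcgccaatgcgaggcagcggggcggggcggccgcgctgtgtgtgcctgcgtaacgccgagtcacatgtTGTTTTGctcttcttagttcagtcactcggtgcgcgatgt

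Of the FOXO genes themselves, none passed for either mixture. FOXO1 was at 8.55 and 8.60 in the morning controls, 8.74 and 8.48 after the primary pollutants, 8.56 and 8.63 in the evening controls, and 8.96 and 8.68 after the PCA pollutants. The PCA arrays were above the evening controls but differed from each other by more than their lower one differed from those controls. The PCA response of FOXO1 was 0.22 (standard error 0.119, adjusted p = 0.205). FOXO4 was at 7.96 and 7.78, 8.12 and 7.88, 7.96 and 8.03, and 7.73 and 7.88 in the same order of groups. Its PCA response was -0.19 (standard error 0.109, adjusted p = 0.237) and its primary response 0.13 (standard error 0.109, adjusted p = 0.798).

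FOXO3 had probe sets that disagreed in direction. Probe set 8121365, which carries FOXO3 alone and is the one counted among the 10 genes, was at 6.56 and 6.65 in the morning controls, 6.81 and 6.29 after the primary pollutants, 6.76 and 6.79 in the evening controls, and 7.02 and 7.15 after the PCA pollutants. Its PCA arrays were the highest of all 8, with a PCA response of 0.31 (standard error 0.154, interval -0.05 to 0.67, adjusted p = 0.180). Probe set 8013307, listed for both FOXO3 and its close copy FOXO3B, was at 9.21 and 9.26, 9.15 and 9.04, 9.40 and 9.35, and 8.80 and 8.88. There the PCA arrays were the lowest of all 8, with a PCA response of -0.54 (standard error 0.0756, interval -0.71 to -0.36, adjusted p = 0.00487). The intervals of the 2 probe sets do not overlap. Which of them follows FOXO3 mRNA cannot be told from these values, so no direction is given for FOXO3. With the shared probe set in place of the other, a choice made after the values were seen, the median PCA response of the 10 genes was -0.45, and the same number, 2, fell. The counts given above for the PCA pollutants by arrays and with no fold limit use probe set 8121365. They would differ with the shared one.

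**Figure D2:**
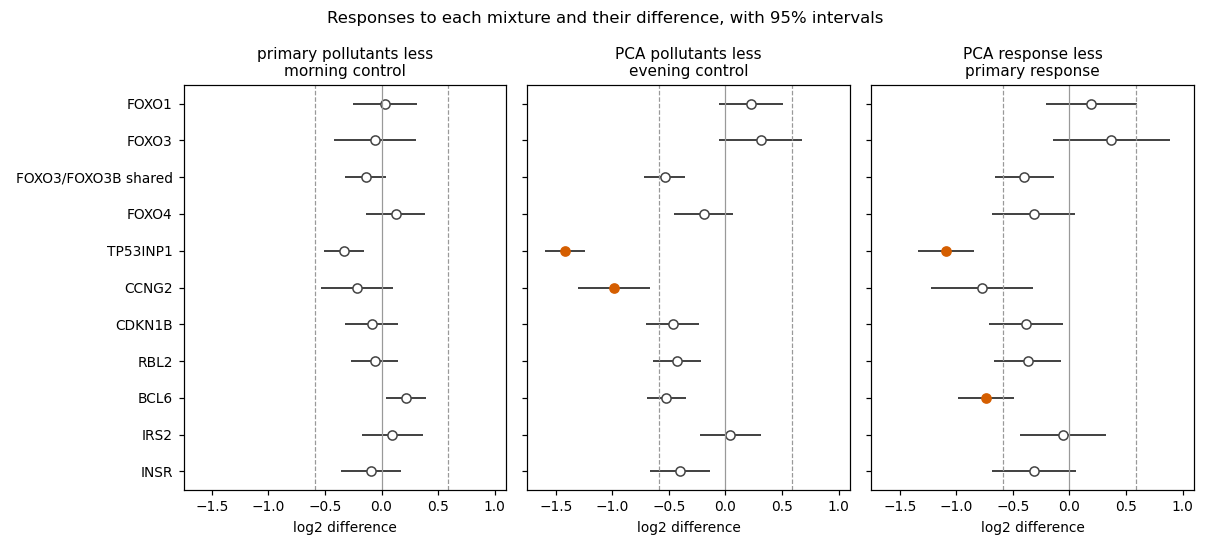
Log2 difference (horizontal axis) with its 95% interval from limma for the 10 genes and the shared FOXO3 probe set, for the primary response, the PCA response and the PCA response less the primary response. Filled points passed the test and dashed lines mark the 1.5-fold limit. TP53INP1 and CCNG2 passed after the PCA pollutants and TP53INP1 and BCL6 in the difference, and the 2 FOXO3 rows lie on opposite sides of 0 in the PCA panel.

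Whether the mixtures differed in their effect was tested as the PCA response less the primary response. This difference passed for 2 of the 10 genes, TP53INP1 and BCL6, beside 0.439% of 17540 genes, and 5 of the 10 had an unadjusted p under 0.05, beside 17.6% of all genes. It was -1.09 for TP53INP1 (standard error 0.102, interval -1.33 to -0.85, adjusted p = 0.0230) and -0.74 for BCL6 (standard error 0.102, interval -0.97 to -0.50, adjusted p = 0.0370). CCNG2 had a difference of -0.77 (standard error 0.190, interval -1.21 to -0.33, adjusted p = 0.113), which did not pass. For the other 7 genes the differences ran from -0.38 for CDKN1B to 0.37 for FOXO3, and none passed. Both calls depended on fitting all 8 arrays, as did nearly all calls over all genes in this difference. A fit without 1 array leaves a single array in its group. Without any 1 of them, TP53INP1 kept a difference between -1.14 and -1.04, with adjusted p from 0.0603 to 0.133. BCL6 kept one between -0.79 and -0.68, with adjusted p from 0.0678 to 0.204.

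Between the controls of the 2 times of day none of the 10 genes passed, but 9 of the 10 were higher in the evening control. Over all genes, 8887 of 17310 were higher. The median difference of the 10 genes was 0.0812, and that of all genes was 0.0034. limma called 0 of the 10 and 0% of 17310 genes in the evening over the morning control. At an unadjusted p under 0.05 it left 1 of the 10, TP53INP1, beside 5.08% of all genes. TP53INP1 was higher by 0.17 in the evening (standard error 0.0723, adjusted p = 0.999). Both evening controls were above both morning controls for 2 of the 10 genes, TP53INP1 and FOXO3, beside 22.1% of all genes. Of the 36 other FOXO targets described below, 30 were higher in the evening control, 15 of them on both arrays. The evening control is the baseline of the PCA responses, and the part of this shift in them was not tested. With the morning controls in place of the evening ones, the median PCA response of the 10 genes was -0.35, and 2 still fell.

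Of 36 other genes reported as FOXO targets, 6 fell after the PCA pollutants and 30 did not pass, so that none rose, beside 2.66% of all genes called lower. Their median log2 fold change was -0.11, and that of all genes was -0.0017. The 6 were SESN3, TXNIP, TNFSF10, BCL2L11, FBXO32 and GABARAPL1. SESN3, whose sestrin protein is a brake on mTOR signaling, was at 8.11 and 7.87 in the evening controls and at 6.49 and 6.36 after the PCA pollutants, and fell by 1.57 (standard error 0.138, adjusted p = 0.00118). TXNIP, which binds thioredoxin and limits glucose uptake, fell by 1.28 (standard error 0.138, adjusted p = 0.00234). TNFSF10 and BCL2L11 encode the death ligand TRAIL and the cell death protein BIM. TNFSF10 had a log2 signal of 7.03 ± 0.0379 (SD, n = 2) in the evening controls and 5.85 ± 0.0655 (SD, n = 2) after the PCA pollutants. It fell by 1.18 (standard error 0.0831, adjusted p = 0.000694). BCL2L11 was at 8.52 and 8.57 in the evening controls and at 7.51 and 7.44 after the PCA pollutants, and fell by 1.07 (standard error 0.0824, adjusted p = 0.000935). GABARAPL1, of autophagosome formation, fell by 0.76 (standard error 0.112, adjusted p = 0.00577). FBXO32, a ubiquitin ligase of muscle wasting, was at 5.67 and 6.42 on the PCA arrays and fell by 0.88 (standard error 0.217, adjusted p = 0.0297), a call that ended when only the 4 arrays of the comparison were fitted, without PCA pollutants replicate 1 and without any 1 of the 4 control arrays. None of the 36 passed after the primary pollutants, and 7 had an unadjusted p under 0.05, beside 7.96% of all genes. TXNIP was among these 7, at -0.69 (standard error 0.137, adjusted p = 0.355), a level 1.61-fold lower. The study, which used analysis of variance and q-values, listed TXNIP as significantly lower after both mixtures. It also listed SESN3, TNFSF10, BCL2L11, FBXO32 and GABARAPL1 as lower after the PCA pollutants. The PCA response less the primary response was -0.87 for TNFSF10 (adjusted p = 0.0359) and -0.83 for BCL2L11 (adjusted p = 0.0379). These were the 2 of the 36 genes in which it passed, beside 0.439% of all genes, and neither passed without any 1 array. Neither passed with no filter on low signal, under treat, with a replicate block or with the controls exchanged. BCL2L11 also did not pass with arrays scaled to ribosomal protein genes. TNFSF10 was 0.45 higher in the evening than in the morning control, and the part of this shift in its difference was not tested.

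Promoter windows of RefSeq, 250 bases before to 50 after each start site on GRCh38.p14, were searched on both strands for the forkhead core GTAAACA and the insulin response core CAAAACA. Of the 10 genes 9 had a window, and of these FOXO4 alone held the forkhead core, 24 to 30 bases after its start site. Each core was in 1 of the 14 windows of these genes (7.14%). Over all 35116 windows, the forkhead core was in 3.42% and the insulin response core in 4.92%. Among the other FOXO targets, the insulin response core was in 2 of 43 windows (4.65%). The forkhead core was in 6 of 43 windows (14%), which belong to 5 of the 31 genes with a window. Of the 6 that fell, TXNIP and BCL2L11 held it, SESN3, TNFSF10 and GABARAPL1 did not, and FBXO32 had no window read for matches. The upstream sequences of TXNIP and BCL2L11 are shown with the core in capitals (TXNIP on the minus strand of chr1:145996580-145996829, BCL2L11 on the plus strand of chr2:111120664-111120913, both GRCh38.p14). A match of these letters is a description of the window and does not show binding.
TXNIP: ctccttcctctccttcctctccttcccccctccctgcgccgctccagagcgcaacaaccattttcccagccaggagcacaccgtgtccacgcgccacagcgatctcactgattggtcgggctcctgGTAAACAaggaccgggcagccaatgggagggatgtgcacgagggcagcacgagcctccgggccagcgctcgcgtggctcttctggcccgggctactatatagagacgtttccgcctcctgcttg
BCL2L11: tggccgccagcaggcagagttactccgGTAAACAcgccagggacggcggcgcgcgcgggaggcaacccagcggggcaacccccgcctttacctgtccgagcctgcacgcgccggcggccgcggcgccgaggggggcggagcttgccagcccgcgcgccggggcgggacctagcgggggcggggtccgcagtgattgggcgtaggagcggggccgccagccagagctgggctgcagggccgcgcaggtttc

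Genes around the FOXO factors and the growth arrest genes were read on 7 further lists, beside the 2.66% of all genes that were called lower and the 3.53% called either way. Of 9 inhibitors of cyclin-dependent kinases and relatives of the 10 genes, 1 fell and none rose after the PCA pollutants. It was CCNG1, the relative of CCNG2, at -0.61 (standard error 0.0724, adjusted p = 0.00280), which did not pass without evening control replicate 1, under quantile normalization and when scaled to ribosomal protein genes. The relative of CDKN1B, CDKN1A, named after its value was seen, was at 0.08 (standard error 0.101, adjusted p = 0.595). The median of this list was 0.08, with 5 of the 9 genes positive and 4 negative. CDKN2B, another inhibitor named after its value was seen, was at 0.37 (adjusted p = 0.0205), under the fold limit. Of 17 other genes of insulin and IGF signaling (receptors, ligands, binding proteins, adaptors and phosphatases), 1 fell and none rose. It was GAB1, an adaptor of growth factor receptors, at -0.61 (standard error 0.142, adjusted p = 0.0238), and its call ended without any 1 of the evening controls or PCA arrays, with arrays scaled to ribosomal protein genes, with the mean of a gene's probe sets, under treat and with the controls exchanged. GRB14, an adaptor that binds the insulin receptor and dampens its signal, was the 1 gene of this list whose PCA response less primary response passed, and was named after its values were seen. The difference was -0.66 (standard error 0.0952, adjusted p = 0.0392), from a PCA response of -0.45 and a primary response of 0.21 that did not pass. This difference did not pass without any 1 array, with no filter on low signal, under quantile normalization or under treat. Nor did it pass with arrays scaled to ribosomal protein genes, with a replicate block or with the controls exchanged.

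None of 22 PI3K and AKT pathway genes passed, with a median log2 fold change of -0.07. PIK3R1, the regulatory subunit of PI3K, was at -0.44 (adjusted p = 0.0116) and TSC2, an upstream inhibitor of mTOR, at -0.42 (adjusted p = 0.0139). Nor did any of 25 genes for proteins that modify, bind or export FOXO, with a median of -0.13. Of these, the 14-3-3 gene SFN was at 0.54 (adjusted p = 0.00565) and the kinase gene MAPK8 at -0.46 (adjusted p = 0.00999). The other 14-3-3 genes of this list ran from -0.17 for YWHAB to 0.14 for YWHAG, and none had an adjusted p under 0.05. SFN was also at 0.27 after the primary pollutants, and its PCA response less primary response was 0.27 (adjusted p = 0.268). Of 19 genes on a list of the DREAM complex and E2F factors, 1 fell. It was TFDP2, a partner that E2F factors need to bind DNA, which fell by 0.84 (standard error 0.0978, adjusted p = 0.00261). None of 14 G1 cyclin and kinase genes passed, with CCND1, the cyclin D1 gene, at 0.41 (adjusted p = 0.0250) and CCNA2, the cyclin A2 gene, at -0.30 (adjusted p = 0.0438). None of 8 genes for corepressors of BCL6 passed either. All 8 had a negative PCA log2 fold change, beside 8785 of all 17470 genes, and their median was -0.26. The 2 of smallest p were TBL1XR1 at -0.50 (adjusted p = 0.0117) and SIN3A at -0.39 (adjusted p = 0.0150). After the primary pollutants none of the genes on these lists passed.

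**Figure D3:**
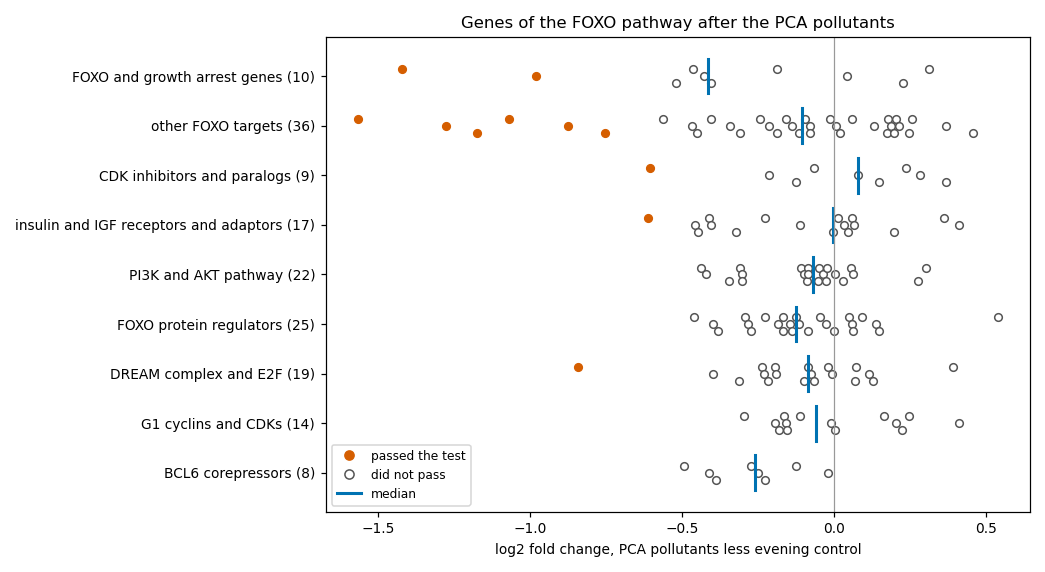
Log2 fold change after the PCA pollutants (horizontal axis) of each tested gene (points) in the 10 FOXO and growth arrest genes and in 8 further lists, with the number of genes in brackets and the median of each list as a line. Filled points passed the test. All filled points lie below 0, and the 10 genes have the lowest median, -0.42.

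The arrays were checked against the label of a lung epithelial line. Of 8 epithelial marker genes, 7 had a signal of at least 100 on all 8 arrays, as did 2 of 8 measured markers of alveolar type II cells, 0 of 7 of leukocytes, 2 of 7 of fibroblasts and 1 of 6 of endothelium. Most type II markers were therefore at low signal in these cells. The summed signal of the endothelial markers was 432 to 462 in the evening controls and 485 to 523 after the PCA pollutants, and that of the epithelial markers was 33067 to 34849 and 31711 to 32067. Such sums are set by the brightest markers. Of the 8 epithelial markers, named after their values were seen, CDH1 (E-cadherin) fell by 1.11 after the PCA pollutants (standard error 0.0720, adjusted p = 0.000665), CLDN1 (claudin 1) rose by 0.72 (standard error 0.0940, adjusted p = 0.00377) and 6 did not pass. Their part in the responses was not tested. Median log2 signals of the arrays lay between 6.93 and 7.03, and 39 ribosomal protein genes had medians of 11.21 to 11.34 in the evening controls and 11.03 to 11.10 after the PCA pollutants. Scaled to these genes, the median PCA response was 0.13 over all genes and -0.29 over the 10, of which TP53INP1 and CCNG2 still fell.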

How the data were processed

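The authors normalized the 8 Human Gene 1.0 ST arrays by robust multichip average and deposited 1 table of log2 signals for 28869 probe sets. Partek 6.4 is the software in the submitters' processing notes. The signals were used as deposited. Of the probe sets, 19310 carry 1 gene, 1752 several and 7807 none, and a gene with several probe sets of its own was read from the one of highest mean signal. Each of the 10 genes studied had 1.

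Probe sets with a signal of 30 or more on at least 1 array of a comparison were tested (25264 for the PCA and 25040 for the primary comparison). A model of the 4 group means over the 8 arrays (limma 3.58.1, R 4.3.3) left 4 residual degrees of freedom before moderation, with Benjamini-Hochberg adjustment over every probe set tested. The comparisons were PCA pollutants less evening control, primary pollutants less morning control, the difference of these responses, and evening less morning control. The fit was tested on simulated data. Figures were drawn with matplotlib 3.10.9.

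The 10 genes and the 8 gene lists were chosen with earlier results of these data known. Named genes of a list are up to 6 called ones of smallest p, or the 2 of smallest p where none was called. The number of arrays limits the precision. Alternatives covered the filter, normalization, arrays, prior, test, thresholds, probe sets, controls, pairing and each array left out. No 2 arrays held identical values.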

Additional observations from a re-analysis of the deposited data

Results flagged for a closer look

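The response of TP53INP1 differed between the mixtures, since subtracting the primary from the PCA response gave -1.09 in log2 units, which passed in limma. TP53INP1 was lower after both mixtures, by 0.33 in the primary and 1.42 in the PCA comparison as absolute log2 differences, and the primary one did not pass.

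BCL6 had a difference of -0.74 that also passed. Here both primary arrays were above their controls and both PCA arrays below theirs, with a primary response of 0.22 and a PCA response of -0.52 that each stayed under the fold limit. Neither difference passed without any 1 of the 8 arrays.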

How the results depend on the processing

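The 2 falls after the PCA pollutants numbered 2 in every setting run but treat against the 1.5-fold limit, which left 1 (TP53INP1), and no fold limit, which gave 6. Of the listed genes that fell, treat left TNFSF10 and SESN3. The median PCA response was -0.34 under quantile normalization and -0.29 with arrays scaled to ribosomal protein genes, and that of the primary pollutants was then 0.0349. Without each array in turn the primary median ran from -0.101 to 0.0586. Calls in the difference between the responses numbered 1 with no filter on low signal (BCL6 then had an adjusted p of 0.0547) and 1 under quantile normalization, and 0 under treat, with the controls exchanged and without each array in turn. No cause of these losses was tested. With the replicate number as a replicate block there were 0, with adjusted p = 0.0519 for TP53INP1 and 0.0900 for BCL6. Deviations of arrays with the same number correlated between -0.102 and 0.0387 over probe sets, so the number was not taken as a pairing, and the block changed no call in the other comparisons. With a trended and robust prior 3 differences passed, CCNG2 among them (adjusted p = 0.0231). The count was 0 after the primary pollutants and between the controls in every setting. Over all genes, the 77 calls in that difference became 16 with no filter, 247 at a minimum signal of 100, 278 with that prior, 315 by an unadjusted analysis of variance, 2 with the block, 33 with the controls exchanged, 0 under treat and 0 to 3 without 1 array, and the 617 PCA calls became 28 under treat and 3471 with no fold limit. FOXO3's own probe set lay near the median signal of the arrays, which limits what it can show.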

Other observations

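TNFSF10, the gene of the death ligand TRAIL, had a higher signal on both evening controls than on both morning controls, though the difference did not pass. Its log2 signal was 6.58 ± 0.0024 (SD, n = 2) in the morning controls and 7.03 ± 0.0379 (SD, n = 2) in the evening controls, a difference of 0.45 (standard error 0.0830, adjusted p = 0.999 in limma). TXNIP was higher by 0.34 in the evening (standard error 0.137, adjusted p = 0.999). For both genes the PCA arrays lay below the controls of either time of day.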
